A study of Mus musculus with 4 samples.

Results

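Transcripts of 10 enzymes of cholesterol synthesis were followed in mouse hippocampal CA1 from 1 to 6 h after contextual fear conditioning under MK-801. The enzymes were chosen by gene symbol in the platform annotation, which placed 11 spots on them out of 16281 spots and 10698 named genes. Mvk had 2 spots and each other enzyme 1. The set was proposed with earlier results of these same arrays known, among them low ratios of sterol synthesis genes at 1 h, so the ratios below are a description and no test of the enzymes supports them.

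The animals were young male C57BL/6J mice, an inbred strain. In the group named MK C+S, an injection of MK-801, which blocks NMDA-type glutamate receptors, preceded conditioning by 1 h. Conditioning was 2 min in a new chamber and then a foot shock of 1 s at 0.5 mA, given 3 times. In the group named MK, mice received MK-801 alone. Both groups therefore carried the drug, at a labelled dose of 300 micrograms per g body weight, far above doses usual for mice and printed as labelled. Tissue came from 1, 2, 4 or 6 h after the last shock, and 1 array of 2 channels served each time, with MK C+S in red and MK in green on all 4. How many mice contributed to each array was not given in the sources used here. There was no dye swap and no replicate array, so an effect of the dyes and one of conditioning cannot be told apart. Precision is limited by having 4 arrays.

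Cells make cholesterol from acetyl-CoA through mevalonate and squalene. In the brain, where little plasma cholesterol enters, it is made locally, chiefly by oligodendrocytes for myelin and by astrocytes, which also supply neurons. Genes of this pathway are known to share control by the SREBP transcription factors, which are released from the endoplasmic reticulum when sterols are low and act at promoters together with NF-Y and Sp1.

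The promoters of 8 of the 10 enzymes were read from RefSeq (GRCm38.p6). Mvk and Msmo1 are shown because they lay below 0 at 1 h, and Hsd17b7 and Cyp51 because they did not. The stretches are the up to 250 bases that end just before the annotated gene start, and they run 5′ to 3′ on the gene's strand, with ATTGG and its reverse CCAAT, the letters bound by NF-Y, in capitals. They are chr5:114444019-114444263 (plus strand) for Mvk, chr8:64733579-64733828 (minus strand) for Msmo1, chr1:169969243-169969455 (minus strand) for Hsd17b7 and chr5:4104698-4104947 (minus strand) for Cyp51.
Mvk: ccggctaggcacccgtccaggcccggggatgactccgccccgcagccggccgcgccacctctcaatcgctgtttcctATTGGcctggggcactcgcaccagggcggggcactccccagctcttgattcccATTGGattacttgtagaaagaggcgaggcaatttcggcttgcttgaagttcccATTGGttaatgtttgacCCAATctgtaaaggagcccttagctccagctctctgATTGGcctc
Msmo1: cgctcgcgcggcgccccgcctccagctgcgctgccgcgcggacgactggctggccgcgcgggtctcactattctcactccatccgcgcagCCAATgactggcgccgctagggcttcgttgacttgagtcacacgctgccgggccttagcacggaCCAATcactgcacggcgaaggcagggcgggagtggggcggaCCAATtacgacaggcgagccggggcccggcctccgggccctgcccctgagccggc
Hsd17b7: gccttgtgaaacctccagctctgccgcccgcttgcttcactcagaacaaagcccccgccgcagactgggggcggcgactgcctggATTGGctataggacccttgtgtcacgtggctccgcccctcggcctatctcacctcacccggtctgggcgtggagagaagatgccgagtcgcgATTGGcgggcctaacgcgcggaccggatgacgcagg
Cyp51: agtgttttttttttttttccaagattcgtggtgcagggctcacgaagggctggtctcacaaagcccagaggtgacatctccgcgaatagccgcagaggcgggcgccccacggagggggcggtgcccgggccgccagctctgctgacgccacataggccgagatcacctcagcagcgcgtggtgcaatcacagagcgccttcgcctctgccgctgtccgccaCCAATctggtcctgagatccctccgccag

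The printed stretches held 5 matches in Mvk, 3 in Msmo1, 2 in Hsd17b7 and 1 in Cyp51. In the 250 bases before the start, ATTGG on either strand was found for 8 of 8 enzymes (Mvk, Mvd, Idi1, Cyp51, Msmo1, Hsd17b7, Sc5d and, in 1 of its 3 promoters, Dhcr7), against 37.5% of 27025 genes with a promoter. The GC box GGGCGG, the letters of Sp1, was likewise found for 8 of 8, against 35.4% of genes. The E-box CACGTG was found for 3 of 8 (Hsd17b7, Sc5d and Dhcr7), against 6.86%. Both strands were searched, matches of different motifs could share bases, CACGTG reads the same on both strands, and the motifs were settled after other strings had been looked at. A match is only a description of the letters, and enzymes below and above 0 at 1 h both held ATTGG and GGGCGG.

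Values are read as log10 ratios per array, and every fold size below rests on that assumed base. A positive ratio likely stands for a higher level in MK C+S, as red over green is the usual order, but neither the direction nor the log base is stated in the labels. In bulk RNA, fewer cells of a type and less RNA per cell cannot be told apart. All 11 spots had a ratio on all 4 arrays. Different spots of the same gene set the scale of error, and their pooled SD was 0.225, 0.204, 0.168 and 0.329 in time order. Ratios of different arrays were weakly related across genes (Pearson correlations from -0.0192 to 0.34), and genes are not independent replicates. No intensities were used here, so the presence of CA1 markers could not be checked.

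At 1 h, 6 enzymes were low and 4 were near or above 0. Mvk, Mvd, Idi1, Sqle, Msmo1 and Sc5d lay between -0.33 and -0.20, while Fdft1, Cyp51, Dhcr7 and Hsd17b7 lay between 0.0029 and 0.11. The low value of Mvk came from 1 of its 2 spots. The median over the 10 enzymes was -0.210, against 0.0013 over the 9162 genes measured, and 6 of 10 enzymes were below 0, against 49.6% of genes. Only Sqle had a ratio 2-fold or more under 1, 1 of 10 enzymes against 3.35% of genes. The values of Mvd, Sqle, Msmo1 and Sc5d were larger than the SD between spots, all 4 below 0, a size that 7.23% of genes reached on that side.

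The later arrays had the enzymes mostly above 0, by small amounts. The median was 0.085 at 2 h, 0.051 at 4 h and 0.091 at 6 h. Enzymes below 0 numbered 2 at 2 h (against 50.3% of genes), 4 at 4 h (50.2%) and 1 at 6 h (51.4%). At these times 0 of 10 enzymes reached 2-fold in either direction, against 6.58%, 7.07% and 21.9% of genes. Msmo1 at 2 h and Hsd17b7 at 4 h were the values larger than the SD between spots, both above 0, 1 of 10 each time, sizes that 8.17% and 11.3% of genes reached on that side. At 6 h there were 0 of 10, against 10.4% of genes below and 8.87% above.

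**Figure D1:**
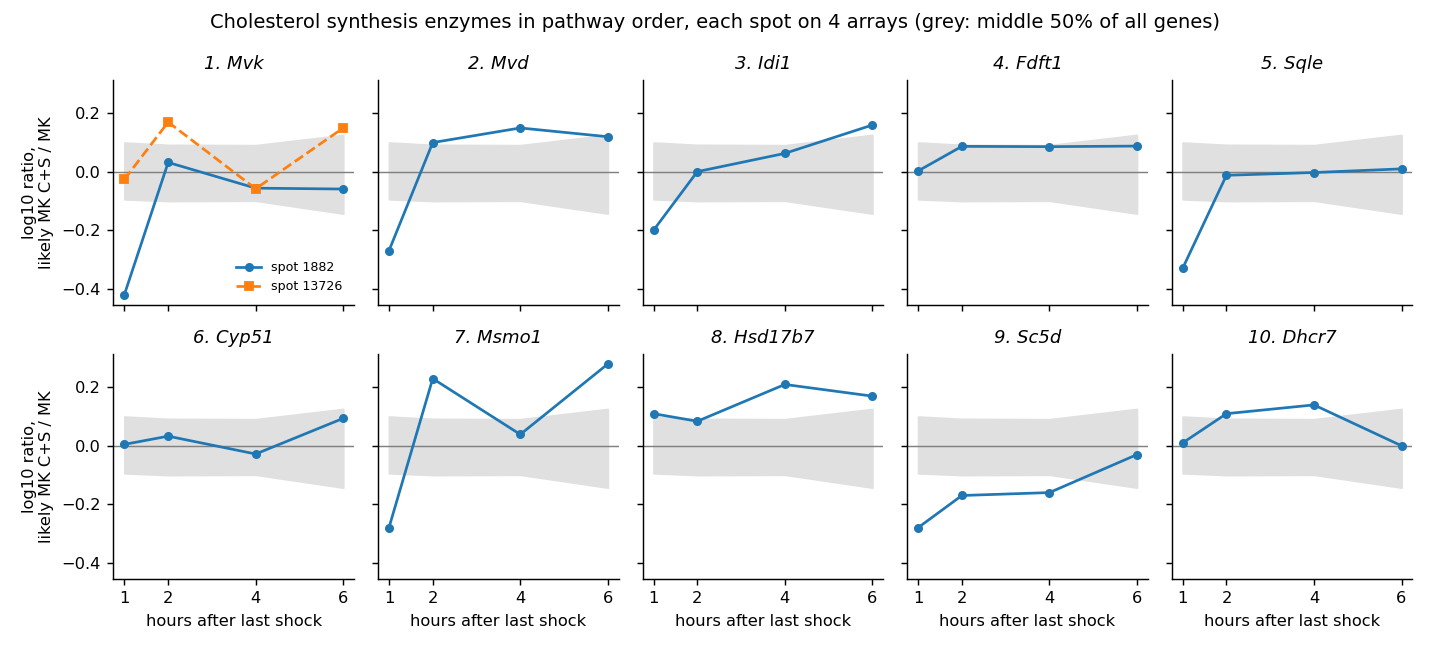
Log10 ratio (y axis) of each enzyme spot against hours after the last shock (x axis), 1 panel per enzyme in pathway order, with 1 array per time and no error bars. Grey bands span the middle 50% of all genes measured. At 1 h, Mvd, Idi1, Sqle, Msmo1, Sc5d and the Mvk spot 1882 lie below the band.

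Of the enzymes of the mevalonate steps, Mvk, the mevalonate kinase, had gene values of -0.22, 0.10, -0.057 and 0.048 at 1, 2, 4 and 6 h. Its spots differed at 1 h. Spot 1882 was at -0.42, 0.032, -0.056 and -0.059, and spot 13726 at -0.026, 0.17, -0.058 and 0.15. The low 1 h value was thus that of spot 1882 alone. At the other times the spots were no further apart than is common, with differences of 0.140 at 2 h and 0.214 at 6 h that 51.4% and 54.9% of genes exceeded. The difference between them was 0.391 at 1 h, where the median difference over 1485 genes with 2 measured spots was 0.140 and 12.1% of those genes differed by more. At 4 h the spots differed by 0.002.

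Mvd, the mevalonate diphosphate decarboxylase that forms isopentenyl diphosphate, was at -0.27 at 1 h and at 0.10, 0.15 and 0.12 at 2, 4 and 6 h. The later values lay within 0.043 of each other, and the 1 h value lay far outside them. Idi1 interconverts the 2 isoprenoid building blocks, isopentenyl and dimethylallyl diphosphate. Its ratios were -0.20, 0.00063, 0.063 and 0.16 in time order, so each array gave a higher ratio than the one before.

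At the entry to the sterol branch, Fdft1, the squalene synthase, was at 0.0029 at 1 h and at 0.087, 0.086 and 0.088 afterwards. Its later values spanned only 0.002. Sqle, the squalene epoxidase and a rate-limiting step after mevalonate, was at -0.33 at 1 h, which is a ratio 2.13-fold under 1 on the linear scale. At 2, 4 and 6 h it was at -0.012, -0.0025 and 0.010. The low ratio of Sqle was thus limited to the 1 h array among the 4.

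Of the enzymes that work on the sterol ring, Cyp51, the lanosterol 14-demethylase, stayed between -0.028 and 0.094, with values of 0.0049, 0.033, -0.028 and 0.094 in time order. Msmo1, the sterol C4-methyl oxidase, had the widest range of the 10, at -0.28, 0.23, 0.039 and 0.28. Its 2 h and 6 h values were ratios 1.71-fold and 1.88-fold over 1, and its 4 h value was near 0. Hsd17b7, a ketosteroid reductase that completes C4 demethylation, was the enzyme with the highest mean. It was at 0.11, 0.084, 0.21 and 0.17, above 0 on every array, with a mean of 0.144 ± 0.058 (SD, n = 4 arrays, each a different time).

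In the last steps, Sc5d, the lathosterol desaturase, was at -0.28, -0.17, -0.16 and -0.030. It was the only enzyme below 0 on all 4 arrays, with a mean of -0.159 ± 0.103 (SD, n = 4 arrays). Dhcr7, which reduces 7-dehydrocholesterol to cholesterol, was at 0.010, 0.11, 0.14 and 0.00019. It was above 0 on all 4 arrays, but by next to nothing at 1 and 6 h, and its deposited 6 h value, before centring, was -0.0053. One sign on all 4 arrays was thus seen above 0 for 3 of 10 enzymes (Fdft1, Hsd17b7 and Dhcr7), against 10.1% of 8553 genes with a value on every array (Dhcr7 only after centring), and below 0 for 1 of 10, against 11.8%.

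Setting the 1 h array against the others, 7 of 10 enzymes had their lowest ratio at 1 h, against 25.9% of genes. Mvk was among the 7 through its spot 1882, as its spot 13726 was lowest at 4 h. Cyp51 was lowest at 4 h, Hsd17b7 at 2 h and Dhcr7 at 6 h. The 1 h value lay below the mean of 2, 4 and 6 h for 10 of 10 enzymes, against 45.4% of genes, with a median difference of -0.207, against 0.019 over all genes. Msmo1 differed most, by -0.46, followed by Mvd at -0.40 and Sqle at -0.33. These 3 of 10 were 2-fold or more lower at 1 h than at the later times, against 5.52% of genes. The difference was -0.27 for Idi1, -0.25 for Mvk and -0.16 for Sc5d, and between -0.084 and -0.028 for Fdft1, Dhcr7, Hsd17b7 and Cyp51. Mvd, Idi1 and Msmo1 were below 0 at 1 h and above 0 at all later times, 3 of 10 against 7.47% of genes. In 3 of 10 (Mvd, Fdft1 and Sqle) the gap below the other arrays exceeded Dixon's critical share of the gene's range for 4 values, against 0.842% of genes. These counts share the 1 h array, on which the choice of the enzymes also rested, and nothing is read from them.

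**Figure D2:**
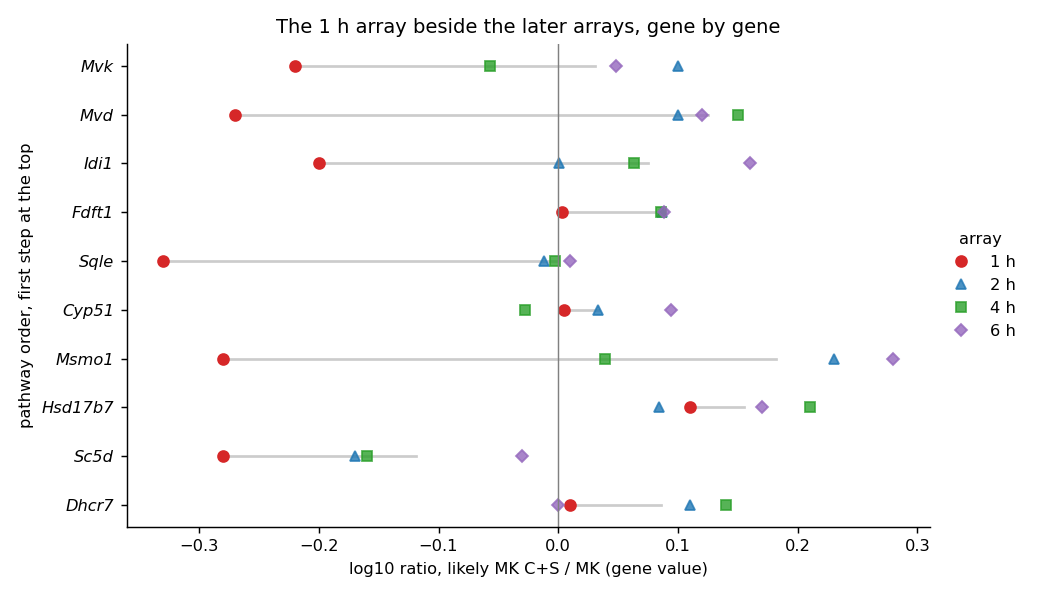
Gene values as log10 ratios (x axis) for the 10 enzymes, first step at the top (y axis), with 1 point per array and grey lines from the 1 h value to the mean of 2, 4 and 6 h. Red 1 h points are leftmost for 7 enzymes, and lie at or above 0 for Fdft1, Cyp51, Hsd17b7 and Dhcr7.

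No enzyme's mean over the arrays passed a test. In limma's moderated test of the mean over the 4 arrays, 0 of 10 enzymes passed at an adjusted p of 0.05, as did 0% of the 8553 genes. Without adjustment 2 of 10 enzymes had a p under 0.05, Hsd17b7 (adjusted p = 0.427) and Sc5d (adjusted p = 0.432), against 11.4% of genes. Leaving out the 4 h array or taking off the running median by spot number made that count 0, and leaving out the 2 h or 6 h array made it 1. For the slope on hours 0 of 10 passed, against 0% of genes, and without adjustment 0 of 10 passed, against 14.6%. With no replicate arrays, both fits take their error from differences among the times.

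Position on the array was compared by taking the 25 spots on either side by spot number. That the order of spot numbers follows position was assumed. At 1 h the median of these neighbours was -0.049 for Mvk spot 1882, 0.057 for Mvd, -0.004 for Idi1, -0.010 for Sqle, -0.019 for Msmo1 and 0.041 for Sc5d. These medians were close to 0, and these enzyme spots lay 0.19 to 0.37 below their neighbours. Around Mvk spot 1882, 5 of 39 neighbours were 2-fold or more under a ratio of 1 and 7 as far over it. Of the enzymes not low at 1 h, Cyp51 had neighbours at 0.106 and differed from them by -0.10. Fdft1 and Hsd17b7 lay 0.045 and 0.14 above theirs, and Dhcr7, at 0.01, had neighbours at 0.014. With the running median over 51 spots removed, 8 of 10 enzymes were below 0 at 1 h, against 6 as reported. The share of all genes below 0 after that step was not worked out, so nothing is read from the change. The part of position in these signs was not tested. At 4 h the neighbours of Hsd17b7 had a median of 0.128, with 8 of 50 below 0, and its ratio was 0.083 above them. Sc5d lay in a stretch with many low spots, where 8 of 45 neighbours were 2-fold or more under a ratio of 1 at 1 h, 9 of 50 at 2 h, 9 of 46 at 4 h and 23 of 49 at 6 h. Its neighbours' median at 6 h was -0.277, and Sc5d lay 0.25 above it there. With a running median over 51 spots removed, the mean of Sc5d was -0.084. The part of position in the Sc5d values was not tested.

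**Figure D3:**
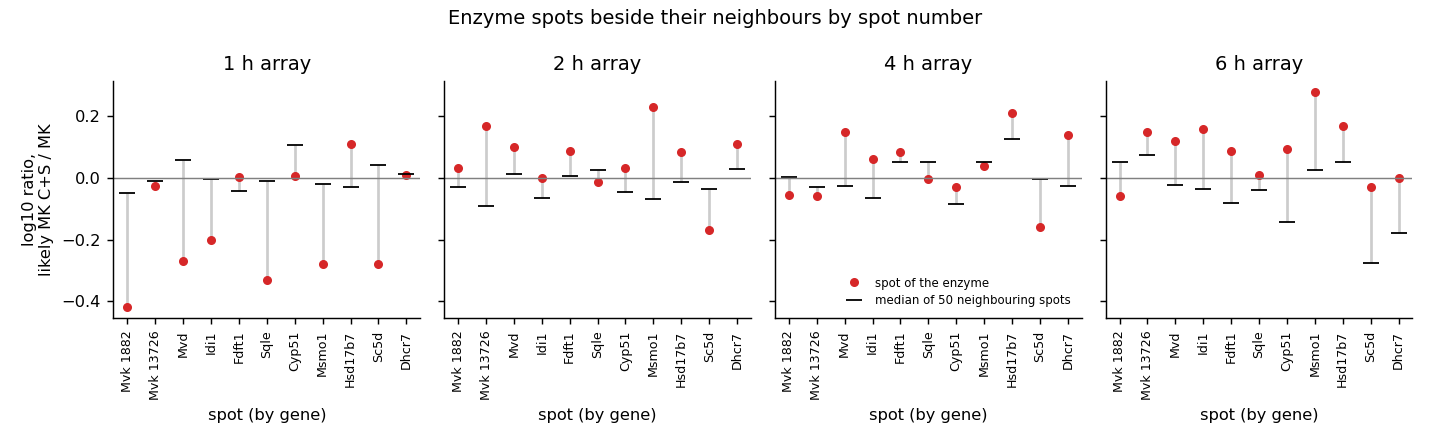
Log10 ratio (y axis) of each enzyme spot (red) and the median of its 50 neighbours by spot number (black bars), by gene (x axis), 1 panel per array. At 1 h the neighbour medians stay between -0.049 and 0.106 while 6 spots lie at -0.20 or lower; at 6 h the neighbours of Sc5d are at -0.277.

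Other genes of the pathway were taken from lists chosen with earlier results known, and most were not annotated on this array. Of 15 other synthesis enzymes 5 were, and their medians were -0.076, -0.078, -0.063 and -0.006 in time order, with 3 of 4, 4 of 5, 4 of 5 and 3 of 5 below 0. Tm7sf2, a sterol C14 reductase, was at -0.12, -0.14, -0.14 and -0.074. Pmvk, the phosphomevalonate kinase that acts between Mvk and Mvd, was at 0.072, -0.23, -0.15 and 0.58, and its 6 h value was the only one of the list past 2-fold. Pmvk was thus above 0 at 1 h. Only 1 of the 4 measured on every array was lowest at 1 h, and the median of 1 h minus later was -0.036.

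Of the 7 genes listed for sterol sensing and SREBP release 2 were annotated. Srebf2, Scap, Insig1, Insig2 and Mbtps2 were not, so the sensing itself was not covered. Srebf1, an SREBP gene, was at -0.016, -0.072, -0.025 and -0.051, and Mbtps1, a protease that releases SREBPs, at 0.058, -0.010, -0.11 and -0.12. Neither was low at 1 h. Uptake and storage genes (5 of 10 annotated) had medians of 0.024, 0.093, -0.080 and -0.034, with 0 past 2-fold. Npc1, which exports cholesterol from lysosomes, was at -0.19, 0.10, -0.083 and -0.059, and the endocytic receptor gene Lrp1 at 0.068, 0.093, 0.14 and -0.034. Efflux and turnover genes (7 of 10 annotated) had medians of 0.022, -0.041, 0.066 and 0.045. The transporter gene Abcg1 was at 0.081, 0.11, 0.19 and 0.054, and Abca1 had a ratio only at 6 h, of -0.58.

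Fatty acid synthesis had its lowest median at 1 h, over 6, 6, 5 and 7 measured genes in time order. A control shared with the enzymes was not tested. Its medians were -0.106, 0.084, 0.109 and 0.031, with 4 of 6 measured genes below 0 at 1 h and 1 of 6 at 2 h. Of 5 genes with a value on every array 3 were lowest at 1 h, with a median of 1 h minus later of -0.163. Scd1, a stearoyl-CoA desaturase, was at -0.65, -1.98 and -1.06 at 1, 2 and 6 h and had no ratio at 4 h, and Scd2 had a ratio only at 6 h, of 0.26. Acly, which supplies cytosolic acetyl-CoA and is named after its values were seen, was at -0.26, 0.098, 0.27 and 0.031.

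Of the markers of cell types a CA1 sample can hold, those of oligodendrocytes and choroid plexus had 1 h medians outside the middle 50% of genes, as did those of CA3 pyramidal neurons, given with the other lists. Oligodendrocyte markers had medians of -0.123, 0.053, 0.051 and 0.051, with 5 of 7 below 0 at 1 h in a range from -0.36 (Cldn11) to 0.18 (Cnp), and 4 of 7 were lowest at 1 h. The markers Mog, Mobp and Cnp went the other way, at 0.15, 0.16 and 0.10 for 1 h minus the later mean. Astrocyte markers had medians of -0.054, 0.008, 0.050 and 0.136, with 5 of 8 below 0 at 1 h, in a range from -0.32 (Aqp4) to 0.12 (Aldoc), and 0 of 8 at 6 h. Choroid plexus markers had a median of 0.514 at 1 h, with 5 of 6 above 0 in a range up to 0.71 (Kcne2) and the sixth, Kl, at -0.24, and of -0.040, -0.017 and -0.115 later. At 2, 4 and 6 h, 4 of 7 were below 0 each time. The lowest at 2 and 4 h was Ttr, at -0.66 and -1.27, which had no ratio at 1 h. The part of these cell types in the enzyme ratios was not tested.

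The other marker lists had other courses. Endothelial and mural markers had medians of -0.072, -0.285, -0.129 and -0.089, and CA3 pyramidal markers of -0.177, -0.309, -0.416 and -0.233. CA1 pyramidal markers were at 0.072, 0.092, -0.057 and -0.135, with 4 of 6 annotated. Microglial markers were at 0.040, -0.140, 0.146 and 0.109, and the 2 annotated dentate granule cell markers at 0.016, -0.023, 0.002 and 0.249.

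**Figure D4:**
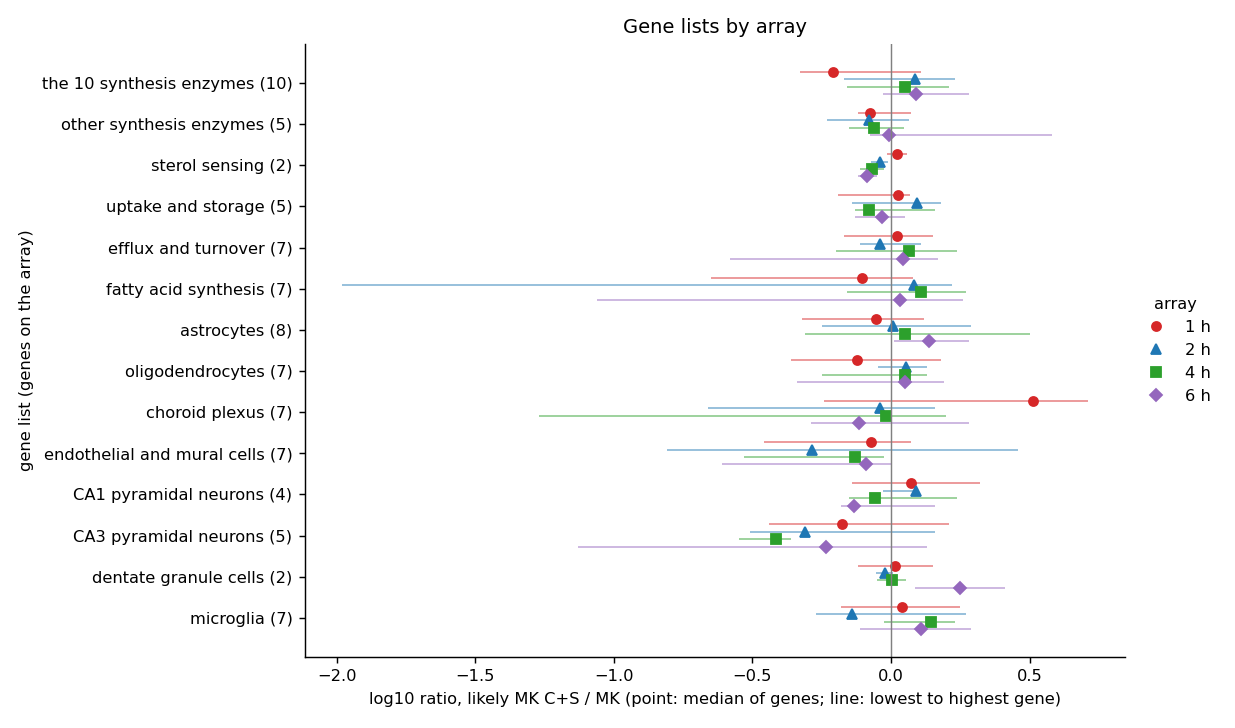
Median log10 ratio (points) and lowest to highest gene (lines) on the x axis for each gene list (y axis, with the number of genes on the array), 1 row per array within a list. The enzymes, fatty acid synthesis, oligodendrocyte and astrocyte lists have 1 h medians of -0.210, -0.106, -0.123 and -0.054 and later medians above 0.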

How the data were processed

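RNA of MK C+S and MK mice was compared on 4 arrays of 2 channels, grouped by time as labelled. The deposited table holds log ratios per spot, which were assumed to be log10. Their range (-3.10 to 1.58) does not settle the base. Scale, centring method and direction stay unknown, and all 4 deposited columns had a median of 0. The software, background correction and normalization behind them were not given in the sources used here.

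An exact 0 (22.7%, 9.34%, 7.39% and 10.0% of spots in time order) was read as not measured, and the median of the other spots was subtracted from each array. The platform annotation gave 13738 spots 1 gene symbol, 52 several and 2491 none, and spots without a single symbol were left out of gene values. The 11 enzyme spots matched RefSeq by Entrez identifier with 0 symbols changed. Spots of a gene were averaged, and 2-fold is 0.301 log10 units. limma 3.58.1 (R 4.3.3) tested the mean and the slope on hours, two-sided, with Benjamini-Hochberg adjustment over 8553 genes at 0.05. It was checked on simulated arrays with mean shifts of 0.6 and 1.2 log10 units, or slopes, added to some genes. At the smaller size, 79 of 100 shifted genes were called in the mean and 61 of 100 in the slope. The added mean shifts were larger than the mean of any enzyme, and the added slopes were steeper than the slope of any enzyme. The check thus does not cover effects as small as theirs, in the mean or in the slope. Other steps used Python 3.11.15 with pandas 2.3.3.

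The enzymes, the gene lists and the alternatives were chosen with earlier results of these data known. All 10 enzymes are named, with the 2 genes of largest absolute mean in each other pathway list, and further genes only where the text says so or as list extremes. Acly, Mog and Mobp were named after their values were seen. A further promoter motif is not reported here. Alternatives covered exact 0, centring, summary of spots, position, scaling, log base, size threshold, array weights, the time covariate and leaving out each array.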

Additional observations from a re-analysis of the deposited data

Results flagged for a closer look

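In 3 of 10 enzymes, against 0.842% of genes, the 1 h array lay below the other 3 by more than Dixon's measure allows, which sets the gap to the nearest value over the whole range against a critical value for 4 values. The measure was 0.974 for Fdft1, 0.935 for Sqle and 0.898 for Mvd. In samples not chosen for it, the measure passes about 1 in 20 groups by chance, counting any array at either end. The 0.842% counts only a low 1 h array, so it is not to be set against that share. These enzymes were chosen with low 1 h ratios known, so nothing is read from the count. For Fdft1 the range itself was small, at 0.085 log10 units, since its later values spanned 0.002. The 4 arrays are different times and not replicates of a group.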

How the results depend on the processing

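Of 122 comparisons of a median or count with an alternative, 109 stayed within the stated margins and 13 moved, all 13 of them counts. Some of the 109 could not have moved, so their number is no measure of stability. No enzyme had more than 2 spots, so the median of spots equalled their mean. A count of 0 past 2-fold had to stay 0 at any higher cut. Keeping exact 0 and leaving out centring gave the enzymes the same values, because the deposited medians were 0. A reversal was not scored separately. The margin for a median was the SD between spots over the square root of 10, and for a count 1.5 times. At 4 and 6 h the median margins, 0.053 and 0.104, were wider than the medians of 0.051 and 0.091. A fall of those medians to 0 would thus have stayed within the margin. Medians stayed between -0.230 and -0.189 at 1 h, 0.079 and 0.094 at 2 h, 0.030 and 0.058 at 4 h, and 0.071 and 0.164 at 6 h. Enzymes past 2-fold at 1 h, 1 as reported, numbered 2 with each spot on its own, 3 with the running median removed, 3 with arrays scaled, 6 at 1.5-fold and 0 at 3-fold or with values read as log2 or natural logs. At 2, 4 and 6 h the count of 0 became 1 at 1.5-fold. Enzymes below 0 at 6 h, 1 as reported, became 2 with exact 0 kept, without further centring and with each spot on its own. The shares of all genes past 2-fold or below 0 under these alternatives were not worked out. Nothing is therefore read from these changed counts. The count lowest at 1 h, an alternative set added after the data were seen, was 7 or 8 throughout. Where it was 7, the share of all genes, if worked out, was 24.6% to 26.9%. It was 8 with the running median removed, against 26.2%. Without the 2, 4 or 6 h array it was also 8, against 32.7%, 31.3% and 33.2% of genes. Those runs took the lowest of 3 arrays, so their counts are not like the others. The median of 1 h minus later lay between -0.259 and -0.162. Leaving out the 1 h array changed the mean of Mvk to 0.031 and that of Sqle to -0.001. Without single arrays the means of Mvd, Idi1 and Msmo1 also lay on either side of 0. No enzyme was called in the mean or slope by limma under any alternative run, the lowest adjusted p being 0.233, for the slope without the 2 h array. Over all genes, 0 were called in the reported fits, against 399 in the slope without the 4 h array and 2 in the mean with array weights. Genes with an unadjusted p under 0.05 in the mean, 973 as reported, ranged from 537 to 1179, and in the slope, 1250 as reported, from 683 to 1428. No paired analysis was possible because each time has 1 array and no replicate number. No intensities were used, so signal over background is unknown.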
